A study of Mus musculus with 18 samples.

Results

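Histone lysine demethylases take methyl groups off the tails of histones and so reverse the marks that histone methyltransferases write. Kdm1a uses flavin as its cofactor and acts on mono- and dimethylated H3K4, whereas the Jumonji enzymes, which make up the rest of the group, need iron, oxygen and 2-oxoglutarate, an intermediate of the citric acid cycle. In the early embryo these enzymes accompany the passage from the naive to the formative pluripotent state, when repressive and activating marks are redistributed. The 10 genes described here (Kdm1a, Kdm2a, Kdm2b, Kdm3a, Kdm3b, Jmjd1c, Kdm4a, Kdm4c, Kdm5b and Kdm6b) were taken by name from this enzyme class, and all 10 were listed in both count tables, out of 14411 genes listed in either table and 12410 listed in both.

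RNA-seq was carried out on mouse embryonic stem cells (ESCs) and on epiblast-like cells (EpiLCs) derived from them, and the question put to each cell type was how continuous exposure to Δ9-tetrahydrocannabinol (THC), the psychoactive component of cannabis, changed its transcriptome. The 12 libraries fell into 4 groups of 3, namely ESCs with vehicle, ESCs with 100 nM THC, EpiLCs with vehicle and EpiLCs with 100 nM THC, and the vehicle was ethanol. All of the cells carried the Blimp1::mVenus and Stella::ECFP reporter transgenes. ESCs were kept with MEK and GSK3 inhibitors and LIF, and EpiLCs were made from them with activin A and bFGF. The study describes its ESC data as coming from female cells of this line, without naming the clone for the libraries separately. The labels call the libraries of a group biological replicates.

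Each library held between 23427551 and 32096698 counts, and a member had between 1520 and 19503 counts in a library, so that counting error was at most 2.56% of a value. The naive markers Esrrb, Klf4, Zfp42, Tbx3, Nanog, Tfcp2l1, Nr0b1 and Prdm14 summed to between 4151 and 4483 CPM (the count of a gene scaled to a common library size, as counts per 1000000) in the ESC libraries and to between 285 and 332 CPM in the EpiLC libraries. Fgf5, Otx2, Pou3f1, Dnmt3a, Dnmt3b and Sox3, which mark EpiLCs, summed to between 150.2 and 168 CPM in ESCs and to between 1706 and 2075 CPM in EpiLCs, with Fgf5 listed in the EpiLC table alone. Of 13 markers of endoderm, mesoderm, trophoblast and fibroblasts, 5 were listed in each table, and together they came to at most 27.9 CPM in any library. In these batch-adjusted counts, within each cell type, vehicle and THC libraries with the same replicate number deviated from their group means in opposite directions, so the libraries were not independent of each other although the tests below treat them as if they were.

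The KDM3 enzymes remove mono- and dimethylation from H3K9, and their members gave the results on which most of this account turns: Kdm3a rose with THC in ESCs, Kdm3a and Kdm3b were much lower in EpiLCs than in ESCs, and Jmjd1c was higher there. The sequences upstream of the 5′-most RefSeq start in the promoter table for each of Kdm3a and Jmjd1c are therefore shown; the one for Jmjd1c lies inside the longer GENCODE span of that gene. They come from the RefSeq promoter windows of GRCm38.p6, in which 7 of the 10 genes matched, and run from 250 to 74 bases before the start (177 bases, of which none is in an exon of the gene itself). They are written 5′ to 3′ on the strand of the gene, Kdm3a at chr6:71632991-71633167 on the minus strand and Jmjd1c at chr10:67126838-67127014 on the plus strand. Capitals mark CCAAT (the letters bound by NF-Y) and GGGCGG (the GC box of Sp1 factors) on either strand, and no match overlaps another.
Kdm3a: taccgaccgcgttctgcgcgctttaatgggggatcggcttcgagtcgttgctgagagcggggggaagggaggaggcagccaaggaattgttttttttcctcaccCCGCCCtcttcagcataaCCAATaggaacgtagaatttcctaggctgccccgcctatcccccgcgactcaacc
Jmjd1c: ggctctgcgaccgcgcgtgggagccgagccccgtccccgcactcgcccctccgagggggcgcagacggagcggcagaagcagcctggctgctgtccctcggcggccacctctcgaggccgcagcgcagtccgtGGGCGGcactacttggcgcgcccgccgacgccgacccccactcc
The Kdm3a stretch held 1 CCAAT, 1 GGGCGG and 14 CG dinucleotides. The Jmjd1c stretch held no CCAAT, 1 GGGCGG and 25 CG dinucleotides, against a median of 3 over all 32851 windows of this length. CCAAT was present in 24.4% of all windows and GGGCGG in 20.6%. The 2 further RefSeq starts of Kdm3a and the 1 further RefSeq start of Jmjd1c were not the ones shown, and the libraries do not tell which start was used.

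In ESCs exposed to THC, Kdm6b and Kdm3a passed the test, in opposite directions. Kdm6b, which removes di- and trimethylation from H3K27, was 13.2% lower, and Kdm3a was 10.9% higher. The remaining 8 members did not pass. The 2 called members of 10 stand against 6.91% of all 13104 genes tested (906 genes, of which 441, or 3.37%, were higher and 465, or 3.55%, lower), at a Benjamini-Hochberg adjusted p of at most 0.05 in edgeR's quasi-likelihood test. The median log2 fold change of the 10 members was -0.00020, beside 0.0041 over all genes. These are bulk measurements, in which fewer cells of a kind and less RNA per cell cannot be told apart.

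Kdm6b (ENSMUSG00000018476, chr11:69398508-69413675 on the minus strand of GRCm38) measured 102, 101 and 102 CPM in the vehicle ESC libraries. With THC it measured 87.5, 89.1 and 88.2 CPM. All THC libraries were therefore below all vehicle libraries, and the gap was far wider than the spread within either group. That spread is what the batch adjustment left, so it may not measure the variation between replicates. The log2 fold change was -0.20 ± 0.03 (SE), with an adjusted p of 0.0278. Antisense transcript Kdm6bos covers 4.11% of its exonic bases, and reads were counted without regard to strand.

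Kdm3a (ENSMUSG00000053470, chr6:71588972-71632990 on the minus strand) stood at 243, 234 and 241 CPM in the vehicle ESCs. The THC libraries gave 260.1, 271 and 264 CPM. Again no THC library lay within the vehicle range. The log2 fold change was 0.15 ± 0.03 (SE), with an adjusted p of 0.0399.

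Both calls depended on how the libraries were treated. Leaving out any 1 of the 6 ESC libraries raised the adjusted p of Kdm6b to between 0.0721 and 0.134 and that of Kdm3a to between 0.0721 and 0.142, with the log2 fold changes of Kdm6b staying between -0.21 and -0.20 and those of Kdm3a between 0.13 and 0.16. Fitting all 12 libraries together gave adjusted p-values of 0.0838 for Kdm6b and 0.410 for Kdm3a. With the replicate number fitted as a block in edgeR, the adjusted p-values were 0.414 for Kdm6b and 0.429 for Kdm3a. DESeq2 called both, with adjusted p-values of 0.00591 and 0.0299.

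The exonic GC content of a gene moved with the THC effect across the whole ESC table. Spearman's rho of the log2 fold change with GC content was -0.535 over 13083 genes, as a description across genes that are not independent replicates. The 2674 genes with 40 to 45% GC had a median log2 fold change of 0.09, and the 1214 genes with 57 to 61% GC one of -0.12. Kdm6b has the highest GC content of the members (59.0%), and Kdm3a lies below the median gene (44.5% against 49.3%). When GC content and length were fitted as offsets, the log2 fold change of Kdm6b was -0.04 ± 0.02 (SE, adjusted p = 0.383) and that of Kdm3a was 0.10 ± 0.04 (SE, adjusted p = 0.224). Thus the size for Kdm6b shrank by more than that for Kdm3a, and neither passed the test.

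**Figure D1:**
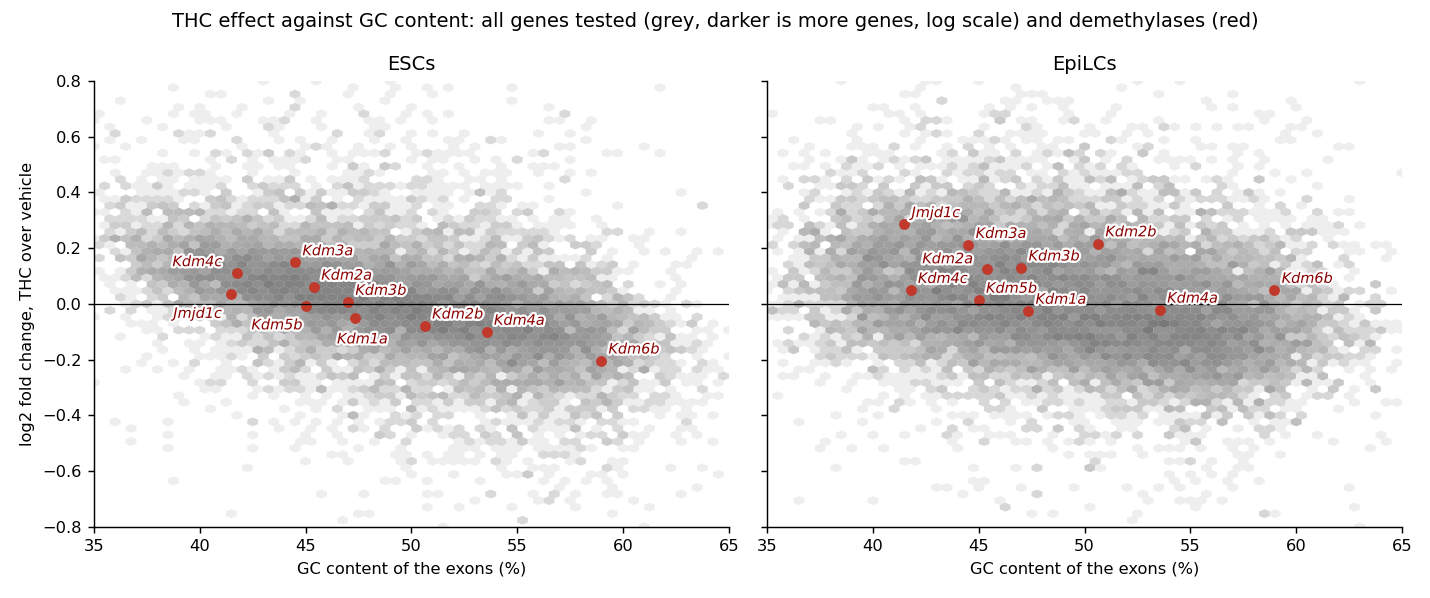
THC effect against GC content. The x axis gives the GC content of a gene's exons in percent and the y axis the log2 fold change of THC over vehicle, in ESCs (left) and EpiLCs (right); grey hexagons are all genes tested, darker for more genes on a log scale (genes beyond the axes are not drawn), and red points are the 10 demethylases. In ESCs the cloud slopes downwards (rho -0.535) with Kdm6b, at 59.0% GC, at its lower right, and in EpiLCs the slope is shallower (rho -0.314).

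None of the other members passed in ESCs. Kdm2a and Kdm2b, which act on H3K36 and carry a CXXC domain that binds unmethylated CpG islands, gave narrow groups that did not overlap. Kdm2a ran from 109 to 111 CPM with vehicle and from 114 to 115 CPM with THC (log2 fold change 0.06 ± 0.02 SE, adjusted p = 0.160). Kdm2b ran from 75.7 to 76.9 CPM with vehicle and from 71.9 to 72.4 CPM with THC (log2 fold change -0.08 ± 0.03 SE, adjusted p = 0.108). With Kdm6b and Kdm3a, 4 of the 10 members had non-overlapping groups, against 32.6% of all genes, so this share is close to the background.

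Kdm4a and Kdm4c, which act on trimethylated H3K9 and H3K36, had log2 fold changes of -0.10 ± 0.06 and 0.11 ± 0.05 (SE), with adjusted p-values of 0.329 and 0.196. Kdm1a gave -0.05 ± 0.04 (adjusted p = 0.484). Kdm5b, an H3K4 demethylase and the most counted member at 593 to 637 CPM, gave -0.01 ± 0.04 (adjusted p = 0.928). Kdm3b gave 0.01 ± 0.02 (adjusted p = 0.887) and Jmjd1c 0.03 ± 0.04 (adjusted p = 0.653). A p above the threshold does not show that the levels were equal.

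**Figure D2:**
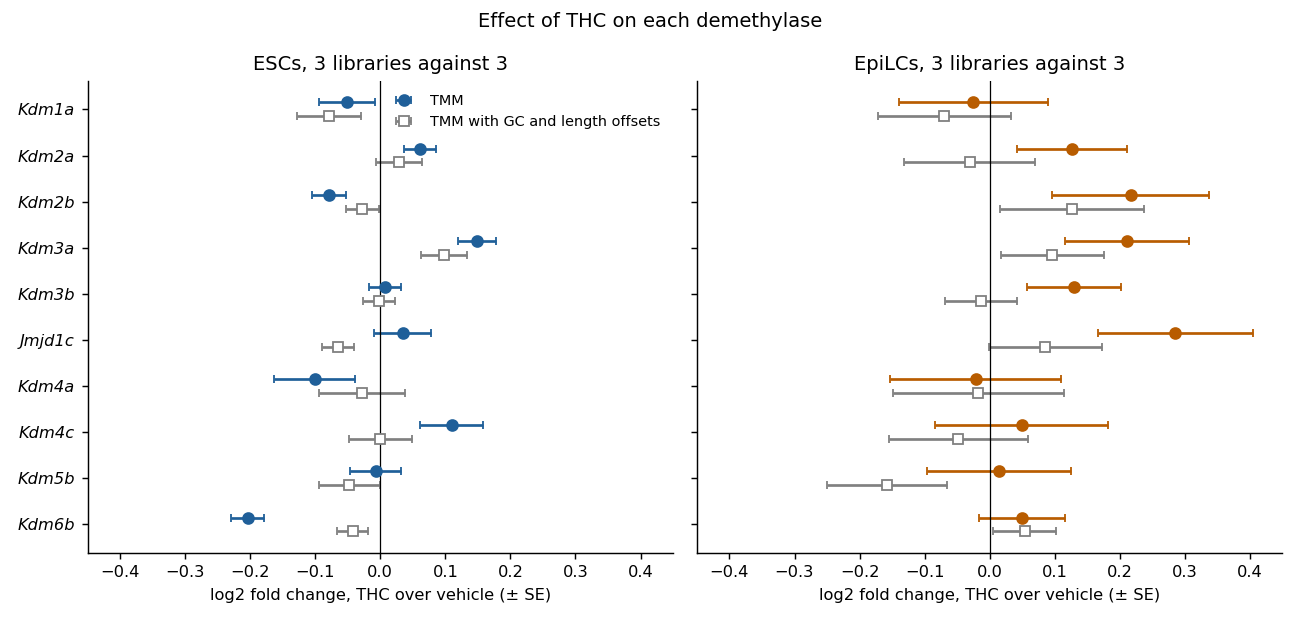
Effect of THC on each demethylase. The x axis is the log2 fold change of THC over vehicle with its SE, from 3 libraries against 3, in ESCs (left, blue) and EpiLCs (right, orange); filled circles are the TMM-normalised fit and open grey squares the fit with GC and length offsets. Kdm6b stands at -0.20 in ESCs and moves to -0.04 with the offsets, and the EpiLC intervals are wider throughout.

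No member passed the test in EpiLCs. None of the 13717 genes tested did so (0%), while 2069 (15.1%) had an unadjusted p under 0.05 in edgeR and DESeq2 called 87 genes, with none of the 10 members among them. Of the members 1, Jmjd1c, had an unadjusted p under 0.05. The spread within groups was wider here, with coefficients of variation of the vehicle groups between 5.05% for Kdm6b and 13.0% for Kdm4c, against 0.776% for Kdm2b to 6.17% for Kdm4a in the vehicle ESCs. Of the members, 8 had a log2 fold change above 0, beside 50.7% of all genes, and their median was 0.09, beside 0.0030 over all genes. With the GC and length offsets 4 of the 10 were above 0 (Kdm2b, Kdm3a, Jmjd1c and Kdm6b).

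Jmjd1c (ENSMUSG00000037876, chr10:67096125-67256326 on the plus strand), a KDM3 family member, had the most positive value in EpiLCs. It measured 216, 228 and 181 CPM with vehicle and 244, 231 and 287 CPM with THC. The groups did not overlap, but by a margin of only a few CPM between vehicle replicate 2 and THC replicate 2. The log2 fold change was 0.29 ± 0.12 (SE), with an adjusted p of 0.331, and 0.19 to 0.36 when 1 library was left out. It was the only member of the 10 without overlap, against 21.8% of all genes. Jmjd1c has the lowest GC content of the members (41.5%) and the greatest exon length (17.8 kb). Across all EpiLC genes, Spearman's rho of the log2 fold change was -0.314 with GC content and 0.338 with exon length. With the GC and length offsets the log2 fold change of Jmjd1c became 0.09. The parts of GC content and length in this were not tested separately.

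Kdm2b (log2 fold change 0.22 ± 0.12 SE, adjusted p = 0.448), Kdm3a (0.21 ± 0.10, adjusted p = 0.360), Kdm3b (0.13 ± 0.07, adjusted p = 0.448) and Kdm2a (0.13 ± 0.08, adjusted p = 0.524) followed in size. Kdm3a measured 116, 109 and 96.8 CPM with vehicle and 114, 123 and 135 CPM with THC in EpiLCs, so THC replicate 1 fell inside the vehicle range. Kdm6b, lower with THC in ESCs, ran from 94.6 to 104 CPM with vehicle and from 100.6 to 109 CPM with THC in EpiLCs (log2 fold change 0.05 ± 0.07 SE, adjusted p = 0.764). Kdm4c, Kdm5b, Kdm4a and Kdm1a had log2 fold changes between -0.03 and 0.05. In those last 4 genes, and likewise in Kdm2b, Kdm3b and Jmjd1c, vehicle replicate 2 was the highest of the EpiLC libraries with vehicle. In the same genes THC replicate 2 was the lowest of the EpiLC libraries with THC. Kdm1a, for example, measured 292 CPM in vehicle replicate 2 and 221 CPM in THC replicate 2. Its other 4 EpiLC libraries lay between 243 and 273 CPM.

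An interaction term asked whether the difference between THC and vehicle was unlike in EpiLCs and ESCs, over the 12410 genes listed in both tables. Under the study's continuous exposure, EpiLCs with THC were derived from ESCs already exposed and were exposed again. Cell type and the length of exposure therefore cannot be told apart in this comparison. None of the members passed, beside 0.0322% of all genes (4 genes), although Kdm6b and Kdm2b had an unadjusted p under 0.05 in edgeR (beside 13.7% of all genes), and DESeq2 called 133 genes with no member among them. The nearest was Kdm6b, whose log2 fold change was 0.27 ± 0.07 (SE) higher in EpiLCs than in ESCs, with an adjusted p of 0.141. Kdm2b came next with 0.31 ± 0.13 (adjusted p = 0.318), from -0.09 in ESCs to 0.22 in EpiLCs in that fit. Jmjd1c had a difference of 0.27 ± 0.13 (adjusted p = 0.403), and for Kdm3a, called in ESCs alone, it was 0.08 ± 0.11 (adjusted p = 0.804). The effect on Kdm3a was thus not shown to differ between the cell types. With the GC and length offsets the difference was 0.10 for Kdm6b (adjusted p = 0.497), 0.16 for Kdm2b (adjusted p = 0.629) and 0.15 for Jmjd1c (adjusted p = 0.532).

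**Figure D3:**
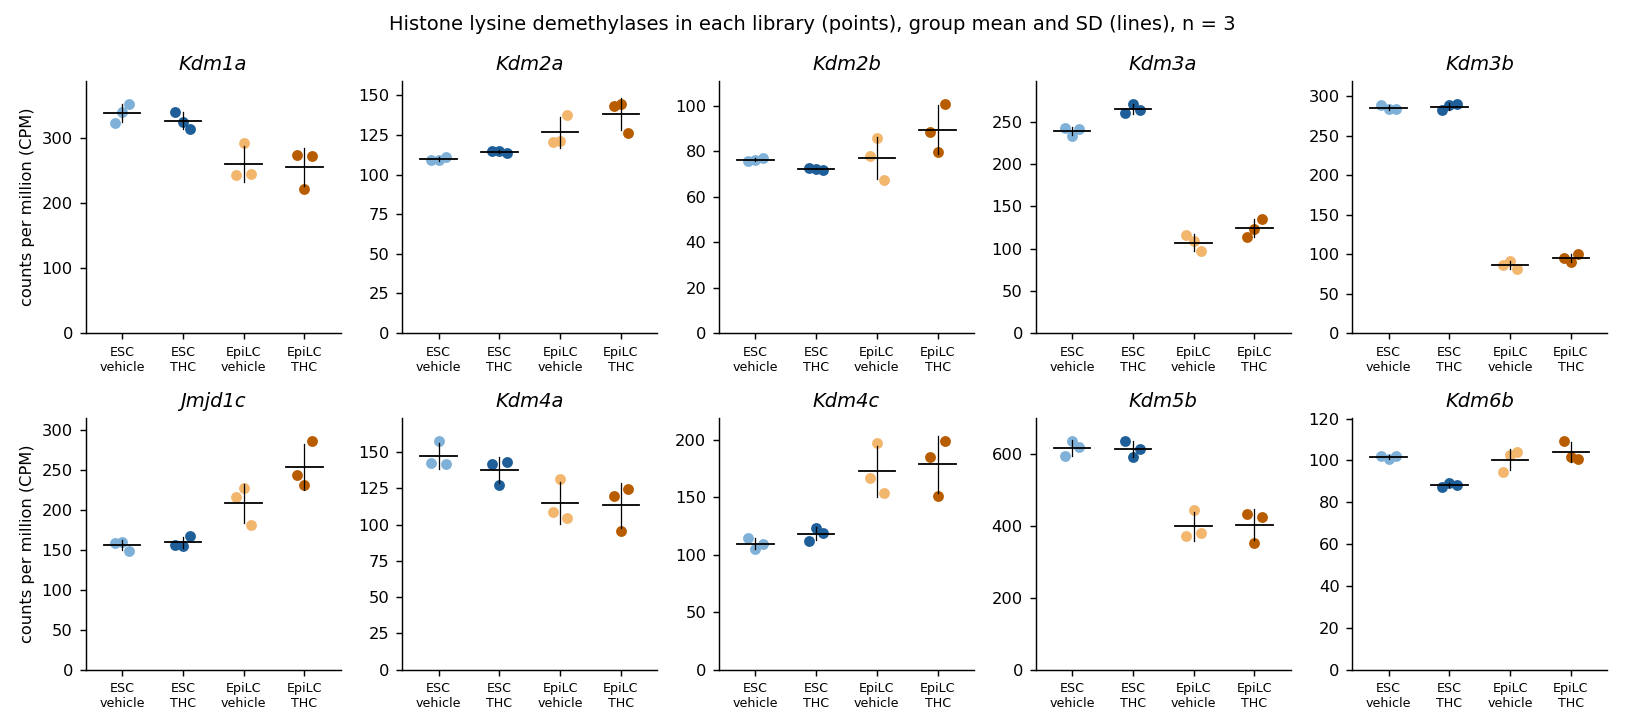
Level of each demethylase in every library. The y axis is CPM, starting at 0, with a panel for each gene; points are single libraries in the 4 groups, horizontal lines are group means and vertical lines the SD (n = 3). Kdm3a and Kdm3b are lower in EpiLCs than in ESCs, Jmjd1c and Kdm4c are higher, and the Kdm6b points with THC lie below those with vehicle in ESCs, at 87.5 to 89.1 against 101 to 102 CPM.

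In 8 of 10 members the vehicle groups of the 2 cell types lay further apart, on the log2 scale, than vehicle and THC did within either cell type. The share of all genes for which this holds was not computed, so the count only describes the members. The count tables of ESCs and EpiLCs were adjusted for batch separately, so that cell type and table cannot be told apart, and the values are given without a test, on CPM scaled over all 12 libraries together. A log2 ratio of EpiLCs over ESCs past 1 in size was found in the vehicle libraries for Kdm3a and Kdm3b, 2 of 10 members and both lower in EpiLCs, against 21.7% of the 12410 genes in either direction and 10.5% in that direction. Comparing all 6 libraries of a cell type with all 6 of the other, 4 members were lower in EpiLCs without overlap, 3 were higher and 3 overlapped. Of all genes 31.0% were lower without overlap and 29.6% higher, or 60.6% together, so that 7 of 10 is close to the background.

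Kdm3b differed most between the cell types. It measured 281 to 291 CPM in the 6 ESC libraries and 81.8 to 100.3 CPM in the 6 EpiLC libraries, and its vehicle mean was 3.29-fold higher in ESCs (log2 ratio -1.72 ± 0.09 SD). Gm26538 shares 24.6% of its exonic bases. Kdm3a followed with 235 to 270.3 CPM in ESCs and 96.9 to 135 CPM in EpiLCs (log2 ratio -1.16 ± 0.14 SD). Jmjd1c went the other way, from 149 to 166 CPM in ESCs to 181 to 287 CPM in EpiLCs (log2 ratio 0.42 ± 0.19 SD). Within the KDM3 family, then, the gene with the fewest CPM in ESCs had the most in EpiLCs, without allowance for exon length.

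The family shares show the larger part of Jmjd1c in EpiLCs on a scale free of library size, but with a different order. Per kilobase of exon, Kdm3a made up 50.1% ± 0.705 of the KDM3 total, Kdm3b 34.9% ± 0.122 and Jmjd1c 15.1% ± 0.606 in vehicle ESCs (SD, n = 3). In vehicle EpiLCs the shares were 42.2% ± 1.49, 20.0% ± 0.985 and 37.8% ± 1.39. The exon length used for Kdm3b includes the bases that it shares with Gm26538, and shares without them were not computed. With THC, Jmjd1c had 14.6% ± 0.576 in ESCs and 39.5% ± 1.49 in EpiLCs. Per kilobase of exon Kdm3a thus kept the largest mean share in EpiLCs, with 41.8% ± 1.73 under THC. Under THC, however, the shares overlapped, at 40.3% to 43.7% for Kdm3a and 37.8% to 40.6% for Jmjd1c. Counted per kilobase of the longest transcript instead, Jmjd1c had 16.1% in vehicle ESCs and 40.4% in vehicle EpiLCs and was then the leading KDM3 gene of EpiLCs, where Kdm3a had 36.9%.

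Kdm4a and Kdm4c also changed places between the cell types. Kdm4a measured 142, 158 and 142 CPM in the vehicle ESCs and 109, 132 and 104 CPM in the vehicle EpiLCs, scaled within each cell type. Kdm4c measured 115, 105 and 109 CPM in the former and 167, 197 and 154 CPM in the latter. The log2 ratio of Kdm4c over Kdm4a counts was -0.42 ± 0.15 in vehicle ESCs and 0.59 ± 0.03 in vehicle EpiLCs (SD, n = 3), and it lay below 0 in every ESC library and above 0 in every EpiLC library, with THC as with vehicle. The exons of the pair are of near-equal length (5.78 kb for Kdm4a and 5.82 kb for Kdm4c). Per kilobase of exon, the order of the counts was therefore also the order of the levels. Per kilobase of the longest transcript, the pair overlapped in ESCs with THC. Kdm4a then ran from 27.3 to 30.7 CPM per kb there and Kdm4c from 26.8 to 29.4. With that length Kdm4a stayed above Kdm4c in vehicle ESCs, and Kdm4c above Kdm4a in EpiLCs with vehicle and with THC, without overlap. Over all 6 libraries Kdm4c did not overlap between the cell types, whereas Kdm4a did (127 to 159 CPM in ESCs and 96.4 to 132 CPM in EpiLCs).

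**Figure D4:**
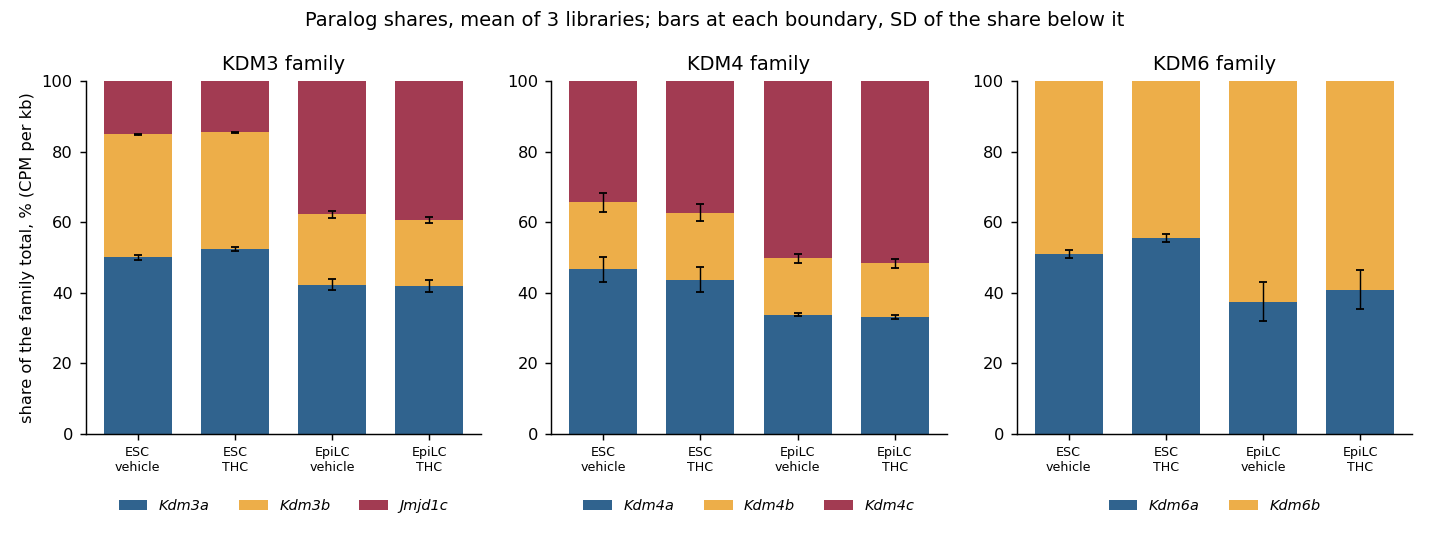
Paralog shares of the KDM3, KDM4 and KDM6 families. Each bar stacks the share of each paralog in the family's summed CPM per kilobase of exon, in percent, as the mean of 3 libraries in each of the 4 groups, and the black whiskers at each boundary are the SD of the share below it. Jmjd1c takes 15.1% of the KDM3 total in vehicle ESCs and 37.8% in vehicle EpiLCs, and Kdm4c 34.4% and 50.2% of the KDM4 total.

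Kdm6b, which overlapped between the cell types in level (87.1 to 103 CPM in ESCs and 95.8 to 111 CPM in EpiLCs), made up 49.0% ± 1.12 of the KDM6 total with vehicle and 44.6% ± 1.11 with THC in ESCs (SD, n = 3), the rest being the H3K27 demethylase Kdm6a. In EpiLCs its share was 62.5% ± 5.63 with vehicle and 59.2% ± 5.45 with THC, and Kdm6a stood lower there (73.2 ± 15.4 CPM against 128 ± 4.76 CPM with vehicle, scaled within each cell type). Per kilobase of the longest transcript, Kdm6b had 41.5% with vehicle and 37.4% with THC in ESCs. In EpiLCs it then had 55.3% and 51.8%. The shares carry no GC offset. With the GC and length offsets, the log2 fold changes in ESCs were -0.04 for Kdm6b and -0.05 for Kdm6a, so the 2 genes hardly differed. Kdm5b was 1.54-fold higher in vehicle ESCs than in vehicle EpiLCs (log2 ratio -0.63 ± 0.15 SD), and Kdm1a 1.30-fold (log2 ratio -0.38 ± 0.16 SD), both without overlap over the 6 libraries of each. Kdm2a was higher in EpiLCs, at 122 to 146 CPM against 110 to 114 CPM (log2 ratio 0.21 ± 0.10 SD). Kdm2b overlapped, at 67.4 to 101 CPM against 71.1 to 77.2 CPM (log2 ratio 0.02 ± 0.18 SD). With the GC and length offsets these log2 ratios were -0.42 for Kdm5b, 0.43 for Kdm2a and 0.24 for Kdm2b. The ratios had the same sign with vehicle and with THC in 9 of 10 members, the exception being Kdm6b (-0.02 and 0.25). For this count, too, the share of all genes was not computed.

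**Figure D5:**
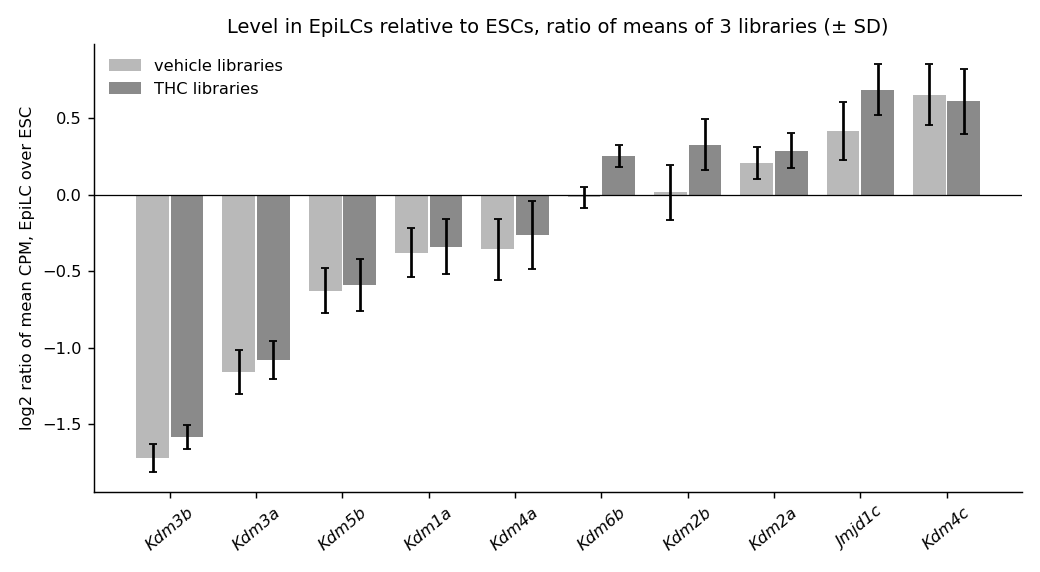
Level in EpiLCs relative to ESCs. Bars give the log2 ratio of mean CPM, EpiLCs over ESCs, for the vehicle libraries (light grey) and the THC libraries (darker grey), each a ratio of means of 3 libraries, and whiskers the SD of the log2 ratio from the libraries of both cell types. The genes run from Kdm3b, at -1.72 with vehicle, to Kdm4c, at 0.66 with vehicle.

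Per kilobase of exon, Kdm1a was the highest member in both cell types, at 65.3 ± 2.78 CPM per kb in vehicle ESCs and 50.2 ± 5.38 in vehicle EpiLCs (SD, n = 3). The order in vehicle ESCs continued with Kdm5b (37.3), Kdm3a (29.1), Kdm4a (25.5), Kdm3b (20.3), Kdm4c (18.8), Kdm6b (14.6), Jmjd1c (8.75), Kdm2a (7.60) and Kdm2b (7.01), and no neighbours in that order overlapped between libraries. In vehicle EpiLCs it continued with Kdm4c (29.6), Kdm5b (24.1), Kdm4a (19.9), Kdm6b (14.4), Kdm3a (13.0), Jmjd1c (11.7), Kdm2a (8.77), Kdm2b (7.08) and Kdm3b (6.14). Here Kdm4c and Kdm5b, Kdm5b and Kdm4a, Kdm6b and Kdm3a, Kdm3a and Jmjd1c, and Kdm2b and Kdm3b overlapped. Kdm3b thus stood in the middle of the order in ESCs and at its end in EpiLCs. The exon lengths kept bases shared with other genes, 24.6% of those of Kdm3b, 8.74% of those of Kdm2b and 4.11% of those of Kdm6b. What this does to the order was not tested. The order depended on the length used. Per kilobase of the longest transcript, Kdm1a stayed first in both cell types and Kdm3b last in EpiLCs. In vehicle ESCs, however, Kdm3b (44.9) then stood above Kdm4a (31.6), Jmjd1c (18.1) above Kdm6b (15.3) and Kdm2b (14.7) above Kdm2a (12.8). In vehicle EpiLCs, among other changes, Kdm5b (45.8) then stood above Kdm4c (41.1), with overlap.

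Across the 6 libraries of a cell type, the profile most like that of Kdm6b in ESCs was that of Kdm2b (Pearson's r of log2 CPM 0.98), and the one most like that of Kdm3a was Kdm2a (r 0.912). In EpiLCs, Kdm1a was most like Kdm5b (r 0.986) and Kdm2b most like Kdm3b (r 0.99). These values describe 6 libraries that share the THC contrast and the opposite deviations of same-numbered libraries.

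Among the other histone lysine demethylases, 13 of 16 were tested in each cell type and none passed in edgeR, while 3 in ESCs and 4 in EpiLCs had an unadjusted p under 0.05 (beside 28.7% and 15.1% of all genes) and DESeq2 called 1 (Kdm5c in ESCs). The smallest p in ESCs belonged to Kdm5c, an H3K4 demethylase, at 373 ± 12.3 CPM with vehicle and 335 ± 12.1 CPM with THC (SD, n = 3). Its log2 fold change was -0.16 ± 0.04 (SE, adjusted p = 0.0579 in edgeR and 0.0301 in DESeq2). In EpiLCs it was Rsbn1, at 17.7 ± 3.72 and 28.0 ± 5.19 CPM (log2 fold change 0.66 ± 0.19 SE, adjusted p = 0.214). With the GC and length offsets the adjusted p was 0.247 for Kdm5c and 0.291 for Rsbn1.

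Kdm1a works in the CoREST complex with Rcor proteins and histone deacetylases. Of 11 such partners 1 passed the test in ESCs, which was Hmg20b, a subunit of CoREST complexes (43.2 ± 1.86 CPM with vehicle, 37.1 ± 1.52 CPM with THC, log2 fold change -0.22 ± 0.05 SE, adjusted p = 0.0481). Kdm2b brings the variant Polycomb complex that contains Pcgf1 and Bcor to CpG islands. Of 9 partners 1 passed in ESCs, the E3 ligase Rnf2, which ubiquitinates histone H2A (153 ± 3.37 CPM with vehicle, 175 ± 4.38 CPM with THC, log2 fold change 0.20 ± 0.03 SE, adjusted p = 0.0301). Of 19 enzymes that make or use 2-oxoglutarate or act on the succinate and fumarate that inhibit Jumonji enzymes, 1 passed in ESCs. This was Idh3b, a subunit of the mitochondrial isocitrate dehydrogenase (117 ± 0.575 CPM with vehicle, 109 ± 0.868 CPM with THC, log2 fold change -0.11 ± 0.02 SE, adjusted p = 0.0479). The 3 called of 39 genes stand against the 6.91% of all genes given above. In EpiLCs none of the 39 passed in edgeR, 5 had an unadjusted p under 0.05 (beside 15.1% of all genes), and DESeq2 called 0. At that unadjusted threshold in edgeR the ESC count was 15 of 39, beside 28.7% of all genes. In ESCs, DESeq2 called Hmg20b and Rnf2 but not Idh3b. Under the GC and length offsets none of the 3 called genes did, with log2 fold changes of -0.06 for Hmg20b (adjusted p = 0.530) and 0.05 for Rnf2 (adjusted p = 0.385), while Idh3b kept its size at -0.12 (adjusted p = 0.0988), and none did once any 1 ESC library was left out.

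Of the 8 naive markers none passed in either cell type by edgeR or DESeq2, and 2 in each had an unadjusted p under 0.05 in edgeR, beside the same 28.7% and 15.1%. Of the EpiLC markers, Pou3f1 (3.83 ± 0.234 CPM with vehicle and 1.97 ± 0.185 CPM with THC) and Sox3 (3.99 ± 0.246 and 3.02 ± 0.193 CPM) were called lower with THC in ESCs by edgeR (SD, n = 3), though not by DESeq2. Both stood at a few CPM there, and their part in the values of the demethylases was not tested.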

How the data were processed

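RNA was measured by poly(A) RNA-seq in 12 mouse ESC and EpiLC libraries, and 6 further samples of sorted germ cell-like cells were not analysed here. The deposited values are counts per gene: the authors kept uniquely aligned reads (STAR, with FastQC and bcl2fastq 2.19.1.403 before it), counted them with HTSeq without strand, removed low counts and adjusted batches with ComBat-seq, separately for ESCs and EpiLCs. The batches are not given in the sources used here, which name both mm10 and GRCm39, so genes were matched by identifier alone. The study names a KAPA kit and an ABClonal kit for library preparation, without saying which libraries each made. DESeq2 gave the authors' own comparisons, which were not used.

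Counts were fitted with edgeR 4.0.16 (R 4.3.3; TMM, genes with more than 10 counts in all, quasi-likelihood test, Benjamini-Hochberg adjustment over all genes, threshold 0.05) for each cell type, and over all 12 libraries for the interaction. An SE is the log2 fold change divided by the root of F. DESeq2 1.42.0, other normalizations and filters, GC and length offsets (splines with 5 degrees of freedom), a replicate block and leaving out each library were alternatives. On simulated data, 200 genes were given a log2 fold change of 1. Of these, edgeR recovered 99.5% in the ESC design over 13104 genes and 94% in the EpiLC design over 13717 genes. Within a cell type, the THC log2 fold changes of the members were at most 0.29 in size. Recovery at such sizes was not tested. Names, exon lengths and GC content came from GENCODE M21 (GRCm38), which held 13083 of the ESC identifiers and 13696 of the EpiLC identifiers. Named genes were all members and, of each other list, those called in either cell type, otherwise the gene with the smallest p in each. Members, lists and motifs were chosen with earlier results of these data known. In the enzyme list 1 gene is not reported here.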

Additional observations from a re-analysis of the deposited data

How the results depend on the processing

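The number of genes called with THC in ESCs (906) came to 878 with RLE normalization and 759 with DESeq2. It was 2 with the GC and length offsets, 31 with all 12 libraries in one fit, and 0 to 1 when 1 library was left out. In EpiLCs, where edgeR called 0, DESeq2 called 87 genes and the joint fit of 12 libraries 411. For the difference between cell types (4 genes), DESeq2 called 133, the GC and length offsets 0, and each fit with 1 library left out 0. Same-numbered vehicle and THC libraries had deviations from their group means that correlated at -0.987 to -0.977, and differently numbered ones at 0.223 to 0.695, so samples of the same number did not deviate together. These are batch-adjusted counts whose batches are not given, and whether the numbers mark those batches was not tested. With the number as a replicate block, 5 genes were called in ESCs, 0 in EpiLCs and 0 for the difference, and 3, 0 and 0 with the block and the GC and length offsets together, with no member among them (adjusted p with the block alone, 0.414 for Kdm6b and 0.429 for Kdm3a in ESCs). The log2 span from the highest to the lowest member was 3.22 per kilobase of exon and 3.13 per kilobase of the longest transcript in vehicle ESCs, and 3.03 and 2.66 in vehicle EpiLCs. The cause of these differences was not tested.

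Several small log2 fold changes turned their sign. With the GC and length offsets, and then with the block added, the values in ESCs were -0.0016 and -0.0017 for Kdm3b, -0.0654 and -0.0653 for Jmjd1c, and, for Kdm4c, -6.2e-05 with the offsets and the block together, while Kdm3b gave -0.0094 in the joint fit. In EpiLCs they were -0.0310 and -0.0311 for Kdm2a, -0.0131 and -0.0128 for Kdm3b, -0.0480 and -0.0486 for Kdm4c, and -0.16 and -0.16 for Kdm5b. The differences between cell types were -0.0579 and -0.0581 for Kdm2a, -0.0099 and -0.0095 for Kdm3b, and -0.11 and -0.11 for Kdm5b. With 1 library left out, the ESC values ran from -0.0025 to 0.0565 for Jmjd1c, from -0.0020 to 0.0184 for Kdm3b and from -0.0325 to 0.0181 for Kdm5b. The EpiLC values ran from -0.0904 to 0.0670 for Kdm1a, from -0.0986 to 0.0878 for Kdm4a, from -0.0399 to 0.157 for Kdm4c, from -0.0523 to 0.101 for Kdm5b and from -0.0030 to 0.0773 for Kdm6b. The differences ran from -0.0123 to 0.133 for Kdm1a, from -0.124 to 0.0618 for Kdm4c and from -0.0180 to 0.123 for Kdm5b. None of these values had passed the test. With the GC and length offsets the log2 ratio of EpiLCs over ESCs moved by more than 1 SD in 5 members, to -1.48 for Kdm3b, -1.01 for Kdm3a, -0.42 for Kdm5b, 0.43 for Kdm2a and 0.24 for Kdm2b.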
